A study of Mus musculus with 9 samples.

Results

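The testis-specific serine kinase family was followed through RNA-seq of cultured mouse round spermatids (RS). The rows of the deposited gene table named Tssk1, Tssk2, Tssk3, Tssk4, Tssk5, Tssk6 and Tsks were taken, 7 genes of 55414 listed, and all 7 were among the 25128 genes tested. The rows were found by gene name. RS were incubated for 24 h in 3 groups of 3 libraries, all in 0.15% DMSO. The vehicle group (libraries 1 to 3) received solvent only. Per the study's methods, oxamate was dissolved in water, and cells without a compound were given the same volumes of solvents. The oxamate group (libraries 4 to 6) received 24 mM oxamate, an inhibitor of lactate dehydrogenase. The third group (libraries 7 to 9) received 24 mM oxamate with 0.3 mM octyl-L2HG, a cell-permeable ester of L-2-hydroxyglutarate. Octyl-L2HG was not given without oxamate in these libraries. The labels call the cells WT. Per the study's methods, its germ cells were sorted by flow cytometry from the testes of male mice on a C57Bl/6 background in which Stra8-iCre switches on a tdTomato reporter in the germ line, so the reporter and the Cre were common to all groups. The labels give no age, and the study's methods name prepubertal and adult mice without saying which gave these cells. The labels do not say whether the 3 libraries of a group came from separate mice or cultures. A figure legend of the study describes 3 incubations per treatment, but not whether their cells came from separate mice. The p-values therefore measure only the spread between these libraries, which may be technical.

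TSSK proteins are serine/threonine kinases of the AMPK-related branch, made almost entirely in spermatids and kept in sperm. TSSK1 and TSSK2 bind and phosphorylate TSKS, a substrate that is not itself a kinase, and are needed for the shaping of elongating spermatids and for male fertility. TSSK6, also called SSTK, is needed for normal packaging of sperm chromatin, and its folding is assisted by the HSP90 co-chaperone TSACC.

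Tssk1 and Tssk2 are single-exon neighbors on the same strand of chromosome 16, and their sequences are shown because near-identical stretches bear on how reads were counted to each. Over 1036 aligned bases their coding sequences (GENCODE vM21) matched at 83.5%, whereas the other pairs of kinase genes matched at 63.5% to 68.7%. The longest identical stretch covers 113 bases, from base 371 to base 483 of both coding sequences, counted from the start codon. It is in capitals below, with 12 flanking coding bases on each side.
Tssk1 coding stretch: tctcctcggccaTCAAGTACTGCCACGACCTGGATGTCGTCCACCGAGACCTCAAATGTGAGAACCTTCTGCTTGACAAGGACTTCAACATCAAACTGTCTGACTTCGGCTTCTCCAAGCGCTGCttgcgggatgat
Tssk2 coding stretch: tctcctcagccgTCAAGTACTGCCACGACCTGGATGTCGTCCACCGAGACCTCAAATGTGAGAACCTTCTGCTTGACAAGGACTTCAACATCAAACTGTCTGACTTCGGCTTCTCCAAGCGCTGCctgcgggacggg
A further identical stretch of 110 bases covers bases 547 to 656 of both. Of all windows of 75 bases, the read length in the study's methods, 75 of 3626 in the Tssk1 transcript (2.07%) and 75 of 1314 in the Tssk2 transcript (5.71%) occur in both. Reads from those windows cannot be assigned to either gene, so the counts of Tssk1 and Tssk2 are uncertain by that part. The labels name another sequencing instrument and run length than the methods.

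The 250 bases before the start of 3 members are shown because their values move most closely together across libraries, as described further on. They are from RefSeq (GRCm38.p6), which held this window for 6 of the 7 members, all but Tssk5. The Tssk1 window is chr16:17893953-17894202, the Tssk2 window chr16:17898387-17898636 and the Tssk6 window chr8:69901934-69902183, each on the plus strand. Capitals mark the matches described after them.
Tssk1 promoter: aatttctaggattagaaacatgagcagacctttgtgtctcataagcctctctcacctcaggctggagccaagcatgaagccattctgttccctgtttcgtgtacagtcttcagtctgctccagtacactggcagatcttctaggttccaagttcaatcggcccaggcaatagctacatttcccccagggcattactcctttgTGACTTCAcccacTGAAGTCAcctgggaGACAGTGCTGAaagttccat
Tssk2 promoter: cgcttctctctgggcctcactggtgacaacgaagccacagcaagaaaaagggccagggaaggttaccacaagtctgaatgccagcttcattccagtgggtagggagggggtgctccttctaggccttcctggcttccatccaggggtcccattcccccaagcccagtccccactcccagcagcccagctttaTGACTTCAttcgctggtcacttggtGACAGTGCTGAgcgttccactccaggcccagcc
Tssk6 promoter: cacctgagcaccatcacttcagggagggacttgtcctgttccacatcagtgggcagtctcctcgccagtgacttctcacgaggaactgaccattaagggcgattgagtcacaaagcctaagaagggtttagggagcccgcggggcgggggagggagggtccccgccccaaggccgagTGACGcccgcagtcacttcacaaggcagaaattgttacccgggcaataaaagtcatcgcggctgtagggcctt
Both strands were searched. The full cAMP response element TGACGTCA, the site of CREM, a transcription factor of spermatids, was in none of the 6 windows and in 1.55% of 32817 RefSeq promoter windows of the same length. Its half-site TGACG, which also lies inside the full element, was in the Tssk6 window, 73 bases before the start, and in 17.7% of all windows. The letters TGACTTCA, which overlap no other capitalized match, stood 48 bases before the start of Tssk1, again on the opposite strand 35 bases before it, and 58 bases before the start of Tssk2. They were in 1.31% of all windows. The longest stretch common to the Tssk1 and Tssk2 windows, GACAGTGCTGA, began 20 and 33 bases before the start and was in 6 windows in all, 0.0183%. TATAAA was in none of the 6 windows and in 12.4% of all. TGACTTCA and GACAGTGCTGA were chosen after the sequences had been read, and all matches are descriptions of letters only.

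The libraries held 32339533 to 39888396 counted reads each. Oxamate library 4 stood apart from oxamate libraries 5 and 6 along the first principal component, at 1.16 against -7.15 and -5.59, and values of the members without it are given below. The RS label was checked against marker genes. The 8 spermatid markers summed to 62547 to 70423 normalized counts per library and the 6 spermatocyte markers to 8272 to 10560. The sums were 189 to 248 for spermatogonia and 31.8 to 51.3 for Sertoli, 19.7 to 40.3 for Leydig, 33.3 to 47.1 for myoid and 94.3 to 124 for macrophage markers. Of 6 listed Sertoli genes 4 were tested. Sox9, Amh and Wt1 had 0 to 4 reads in any library, and Clu, which made up most of the Sertoli sum, had 26 to 50. In bulk RNA, fewer cells of a type and less RNA per cell cannot be told apart.

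Normalized counts are the raw counts divided by a DESeq2 size factor of the library, computed here from the genes tested. Divided also by transcript length, they gave an order of levels. In vehicle, Tssk2 was highest at 9770 ± 392 normalized counts per kb (SD, n = 3), followed by Tsks at 5679 ± 305, Tssk4 at 4726 ± 188 and Tssk1 at 4278 ± 197. Tssk3 had 2396 ± 87.6 per kb, Tssk6 913 ± 144 and Tssk5 544 ± 40.5. No neighbors in this order overlapped between libraries, in any of the 3 groups. The place of Tssk1 rests on its annotated length: with the 3700 bases of the GENCODE transcript it was the fourth, and with the 1451 bases of RefSeq it had 10909 ± 502 per kb in vehicle, the highest mean of the 7. Oxamate left the order as in vehicle. With oxamate and octyl-L2HG the last places changed: Tssk5 had 556 ± 42.2 per kb and Tssk6 464 ± 21.4, so that Tssk6 lay below Tssk5 in every library of that group and above it in every library of the others.

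**Figure D1:**
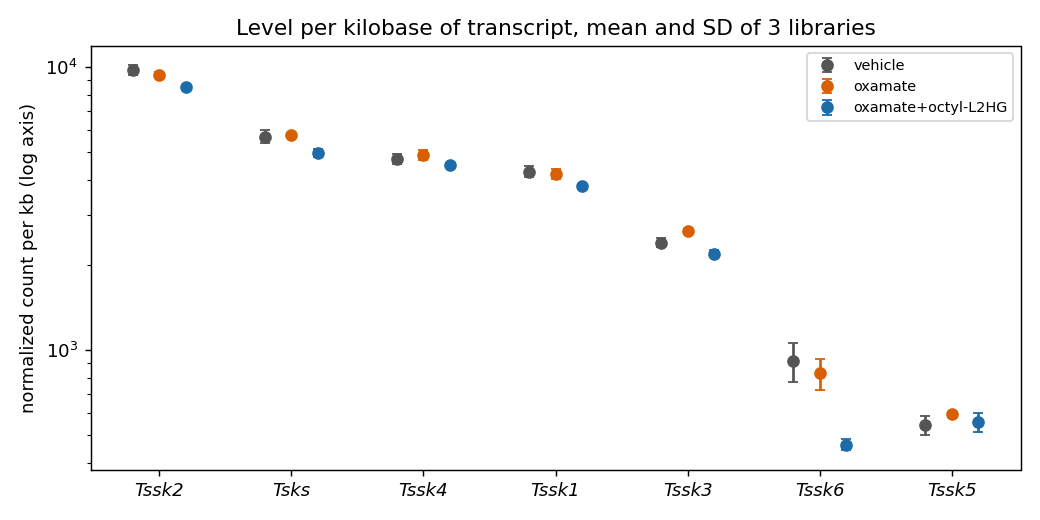
Normalized counts per kb of the longest coding GENCODE transcript (log axis) for the 7 genes, ordered by vehicle. Points are means and bars SDs of 3 libraries per group. Tssk6 falls below Tssk5 in the group with octyl-L2HG, at 464 against 556.

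Adding octyl-L2HG to oxamate lowered part of the family, and with oxamate alone no member was detected as changed. Against oxamate, Tssk6, Tssk3 and Tsks fell, 3 of 7 members at a Benjamini-Hochberg adjusted p-value below 0.05 in edgeR's quasi-likelihood test, when 8.06% of all genes tested were called as lower (2025 genes, and 2840 without oxamate library 4, with 3 members still called). Of the 6580 genes whose mean normalized count reached 500, as that of every member did, 11.1% were lower. Against vehicle, Tssk6, Tsks, Tssk2 and Tssk1 fell, 4 of 7, with 10.6% of all genes called as lower, and likewise 10.6% of those with a mean of at least 500. No member was called as higher in either comparison. DESeq2 called the same 3 and the same 4 genes. Between oxamate and vehicle 0 of 7 members were called by edgeR. Of all genes 5.19% were called, and 9.82% of those with a mean of at least 500, so 0 of 7 is near these shares. The calls over all genes were 1303, and 2288 without oxamate library 4, with 0 members called in either fit. At an unadjusted p-value under 0.05 there was 1, Tssk3, and DESeq2 called 0. In the test of any difference among the groups 5 of 7 were called, all but Tssk4 and Tssk5, with 19.8% of all genes called and 34.6% of those with a mean of at least 500. The comparisons share libraries and are not independent of each other. The split of all genes called with both compounds depended on the tool, the scaling and the filter. Against oxamate 798 were higher and 2025 lower, with no filter on low counts 1429 and 1797, with DESeq2 1258 and 1627, and with total counts 421 and 2516. Against vehicle 1879 were higher and 2655 lower, with no filter 2690 and 2421, with DESeq2 2161 and 2017, and with total counts 1231 and 3367.

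The members' median log2 fold change was 0.03 for oxamate against vehicle, -0.17 for both compounds against oxamate and -0.20 for both compounds against vehicle. The medians of all genes tested were -0.01, -0.04 and -0.05, and those of genes with a mean of at least 500 were 0.02, 0.03 and 0.06. In 6 of 7 members, all but Tssk5, every library with both compounds lay below every oxamate library, which held for 15.3% of all genes and 16.4% of those with a mean of at least 500. In the same number of members, again all but Tssk5, every library with both compounds lay below every vehicle library, with 18.5% of all genes and 16.1% of the higher expressed ones doing so. Summed over the 7 genes, the libraries with both compounds held 46586 to 47275 normalized counts, vehicle libraries 50579 to 54970 and oxamate libraries 51727 to 54547.

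**Figure D2:**
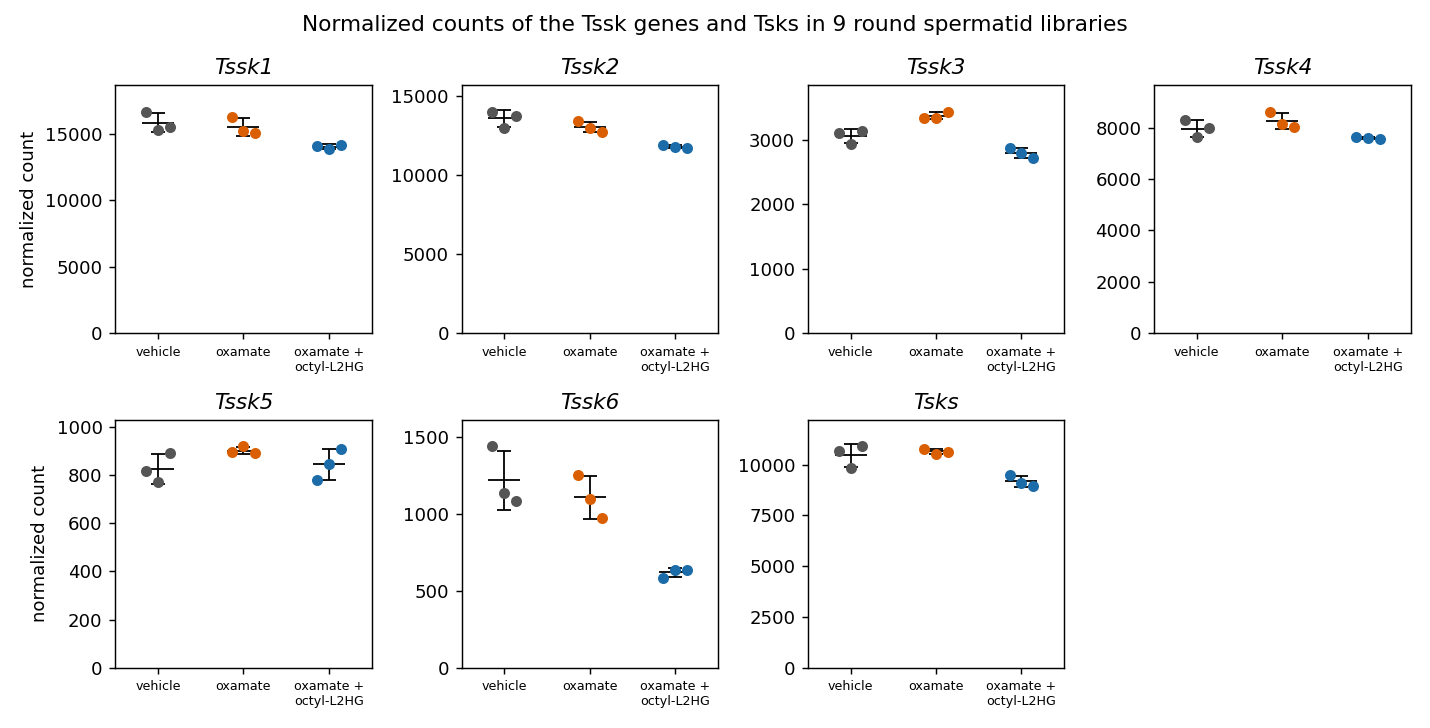
Normalized counts of the 7 genes in each library, in panels that each start at 0. Points are libraries, horizontal marks means and bars SDs (n = 3). Tssk6 drops from 972 or more in each other library to between 586 and 637 with both compounds, and Tssk5 overlaps in all 3 groups.

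Tssk6 (ENSMUSG00000047654) was the member with the largest change. It had 1438, 1134 and 1082 normalized counts in the vehicle libraries, 1249, 1096 and 972 in the oxamate libraries and 586, 637 and 634 with both compounds. All 3 libraries with both compounds lay below the other 6, and vehicle and oxamate overlapped. The means were 1218 ± 192, 1106 ± 139 and 619 ± 28.6 (SD, n = 3). With octyl-L2HG and oxamate, Tssk6 fell by 45.1% against oxamate, a log2 fold change of -0.86 (SE 0.11, edgeR adjusted p = 2.03e-05). Against vehicle the log2 fold change was -0.998 (SE 0.11, edgeR adjusted p = 1.13e-06). Oxamate alone gave -0.13 (SE 0.10, edgeR adjusted p = 0.557), and its approximate 95% interval of -0.33 to 0.07 holds both directions. That value rested on single libraries, at -0.24 without oxamate library 4 (edgeR adjusted p = 0.119) and 0.0034 without vehicle library 1 (edgeR adjusted p = 0.99). Without oxamate library 4 the fall against oxamate was -0.76 (edgeR adjusted p = 1.76e-06). Both falls were called with any of the 9 libraries left out, between -0.95 and -0.76 against oxamate and between -1.06 and -0.86 against vehicle.

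Tssk6 shares 375 bases of its single exon, 28.1% of the transcript, with Ndufa13 on the opposite strand, a gene for a subunit of respiratory complex I. The kit kept strand, but the strand setting of the counting is not given in the sources used here, and without strand the reads of the overlap cannot be told apart. Ndufa13 had 1382, 1276 and 1289 normalized counts in the vehicle libraries, 1121, 1207 and 1172 in those with oxamate, and 1223, 1084 and 1025 in those with both compounds. Its vehicle libraries were the highest, and the other 2 groups overlapped. Its log2 fold change for both compounds was -0.10 against oxamate (SE 0.08, edgeR adjusted p = 0.498) and -0.27 against vehicle (SE 0.08, edgeR adjusted p = 0.017). Part of the Tssk6 count may therefore include or lack antisense reads, and this was not tested.

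Tssk3 (ENSMUSG00000000411), a kinase of late spermatids needed for male fertility, took a different course. Its vehicle libraries had 3114, 2939 and 3148 normalized counts, its oxamate libraries 3348, 3346 and 3447, and those with both compounds 2886, 2803 and 2726. No pair of groups overlapped, with oxamate highest and both compounds lowest. With octyl-L2HG and oxamate, Tssk3 fell by 18.5% against oxamate alone, a log2 fold change of -0.30 (SE 0.06, edgeR adjusted p = 0.00381). This fall was called in each of the 9 fits with a library left out, between -0.31 and -0.27, and the value without oxamate library 4 was -0.30. The value for oxamate against vehicle was 0.14 (SE 0.06, edgeR adjusted p = 0.228), and oxamate libraries lying above all vehicle libraries occurred in 11.4% of all genes and 17.4% of those with a mean of at least 500. For both compounds against vehicle the value was -0.15 (SE 0.06, edgeR adjusted p = 0.108). That comparison passed the threshold without oxamate library 4 (edgeR adjusted p = 0.0384) and with total counts as the scaling (-0.21, edgeR adjusted p = 0.0172).

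Tssk1 (ENSMUSG00000041566) and Tssk2 (ENSMUSG00000045521), the kinases with the shared stretches shown above, stayed close to each other. Normalized counts of Tssk1 were 16661, 15301 and 15527 under vehicle, 16257, 15192 and 15054 under oxamate, and 14058, 13821 and 14165 under both compounds. Those of Tssk2 were 13996, 12951 and 13734 under vehicle, 13378, 12951 and 12709 under oxamate, and 11853, 11759 and 11679 under both. In each gene vehicle and oxamate overlapped, and all libraries with both compounds lay below the other 6. Under both compounds Tssk1 fell by 12.8% against vehicle, a log2 fold change of -0.20 (SE 0.06, edgeR adjusted p = 0.0299). Tssk2 fell by 14.5% against vehicle, a log2 fold change of -0.23 (SE 0.06, edgeR adjusted p = 0.0102). Against oxamate the values were -0.17 for each gene (SE 0.06, edgeR adjusted p = 0.0815 for Tssk1 and 0.0693 for Tssk2), not past the threshold. Without oxamate library 4 they were -0.13 for Tssk1 and -0.15 for Tssk2, again not past it. The Tssk1 call against vehicle held in 4 of the 9 fits with a library left out. It was lost without vehicle library 1 or 3 and without library 7, 8 or 9, with adjusted p-values from edgeR up to 0.131. The Tssk2 call was lost in 1 of those fits, without library 8. Both calls were also lost with no filter on low counts, at adjusted p-values from edgeR of 0.158 for Tssk1 and 0.0687 for Tssk2. With total counts as the scaling, both genes also passed the threshold against oxamate (edgeR adjusted p = 0.019 and 0.015). Tssk1 overlaps Dgcr2 on the opposite strand by 63 bases, 1.70% of its transcript.

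Tsks (ENSMUSG00000059891), the substrate, was measured at 10661, 9833 and 10904 normalized counts in vehicle libraries. The oxamate libraries held 10791, 10514 and 10644, and those with both compounds 9481, 9100 and 8947. Here too the libraries with both compounds were below all others, and vehicle and oxamate overlapped. Under both compounds Tsks fell by 15.4% against oxamate, a log2 fold change of -0.24 (SE 0.06, edgeR adjusted p = 0.0127). Against vehicle it fell by 13.6%, a log2 fold change of -0.21 (SE 0.06, edgeR adjusted p = 0.0183). Without oxamate library 4 the fall against oxamate was -0.23. The call against oxamate was lost without library 8 or 9, and the call against vehicle was lost without library 1, 3, 8 or 9, with adjusted p-values from edgeR up to 0.0777 and 0.104. Both calls were also lost with no filter on low counts, at adjusted p-values from edgeR of 0.0623 and 0.113.

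Tssk4 and Tssk5 passed the threshold in no comparison, except that with total counts as the scaling Tssk4 passed it against oxamate (-0.19, edgeR adjusted p = 0.0373) and in the test of any difference, where edgeR then called 6 of 7 members. Tssk4 (ENSMUSG00000007591), which phosphorylates the outer dense fiber protein ODF2, gave 8283, 7650 and 7972 normalized counts under vehicle, 8631, 8146 and 8011 under oxamate, and 7632, 7617 and 7543 under both compounds. Its lowest 3 values were those with both compounds, of which the highest, 7632, lay just under the lowest vehicle library, 7650. The log2 fold change was -0.15 against oxamate (SE 0.06, edgeR adjusted p = 0.142), or -0.11 without oxamate library 4, and -0.09 against vehicle (SE 0.06, edgeR adjusted p = 0.36). Tssk5 (ENSMUSG00000060794), a further kinase of the family, gave 815, 771 and 892 under vehicle, 895, 919 and 890 under oxamate, and 778, 847 and 906 under both, and all 3 groups overlapped. Its approximate 95% interval was -0.28 to 0.04 for both compounds against oxamate and -0.15 to 0.17 for both compounds against vehicle.

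**Figure D3:**
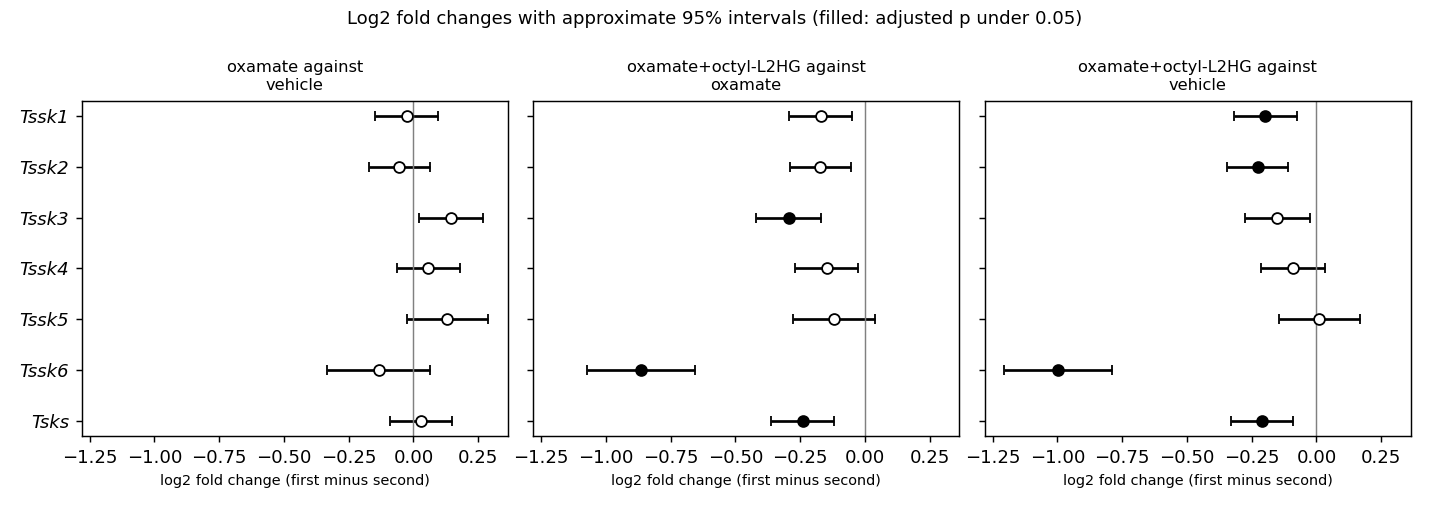
Log2 fold changes of the 7 genes in the 3 comparisons, with approximate 95% intervals. Filled points had an edgeR adjusted p-value under 0.05. Tssk6 lies farthest from 0 in both comparisons with octyl-L2HG, at -0.86 and -0.998, and the panel for oxamate alone has no filled point.

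Ratios within a library do not depend on how libraries were scaled. The ratio of Tssk6 to Tssk1 was 0.086, 0.074 and 0.070 in vehicle libraries, 0.077, 0.072 and 0.065 with oxamate, and 0.042, 0.046 and 0.045 with both compounds. The 3 libraries with both compounds lay below the other 6, and vehicle and oxamate overlapped. The log2 difference was -0.69 against oxamate (two-sided exact permutation p = 0.1, the smallest that 3 against 3 libraries allow). The ratio of Tssk6 to Tsks was 0.099 to 0.135 with vehicle, 0.091 to 0.116 with oxamate and 0.062 to 0.071 with both compounds (two-sided exact permutation p = 0.1 against oxamate). In contrast to these, the ratio of Tssk1 to Tssk2 lay between 1.130 and 1.215 in all 9 libraries, with overlapping groups. The ratio of Tssk3 to Tsks was 0.289 to 0.299 with vehicle, 0.310 to 0.324 with oxamate and 0.304 to 0.308 with both compounds. The 7 ratios examined in 3 comparisons each could not reach a smaller p, so none could pass an adjustment over them.

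**Figure D4:**
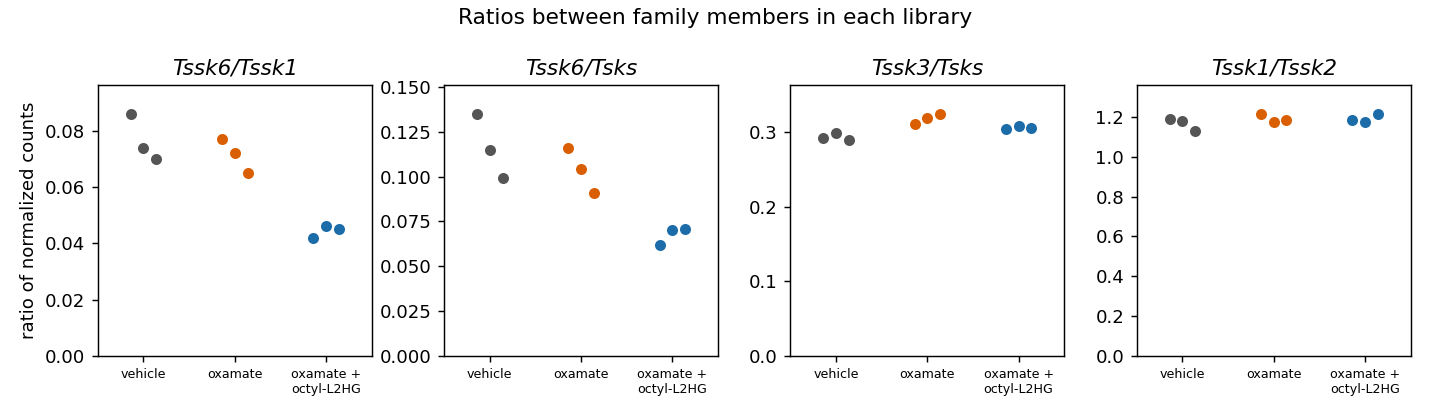
Ratios of normalized counts between members in each library, 3 libraries per group, with axes that start at 0. The ratio of Tssk6 to Tssk1 is 0.042 to 0.046 with both compounds and 0.065 or more in every other library, and that of Tssk1 to Tssk2 is 1.130 to 1.215 throughout.

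Across the 9 libraries, which share the group differences described above, the log2 counts of Tssk1, Tssk2 and Tssk6 were the closest: Pearson's r was 0.962 for Tssk1 with Tssk6, 0.950 for Tssk1 with Tssk2 and 0.949 for Tssk2 with Tssk6. Tssk5 had r from 0.073 to 0.43 with the other members. Among 10714 genes whose mean normalized count reached 100, those most like each called member over the 9 libraries were listed as a description. For Tssk6 they were 1700001P01Rik (r = 0.994), Tmem205 and Rbmxl2, a gene for a germ cell RNA-binding protein. Rbmxl2 averaged 2762 normalized counts under vehicle, 2505 under oxamate and 1497 under both compounds. For Tssk1 they were Atp5g3 (r = 0.988), Rnf151 and Znrf4, and for Tssk2 Npb (r = 0.983), Gtsf1l and Fam71e1. Tssk3 was nearest to Ston2 (r = 0.988), Eef2k and Klf9, whose means were also highest with oxamate and lowest with both compounds. Tsks was nearest to Spn-ps (r = 0.986), Tulp2 and Odf1, an outer dense fiber protein of the sperm tail.

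The list of TSSK partners and further substrates, which leaves out Tsks, held few calls. Of its 11 genes, 0 were called by edgeR for both compounds against oxamate, 6 at an unadjusted p-value under 0.05, while DESeq2 called Hsp90aa1 and Odf2, each as higher. Over all genes, 3.18% were called as higher and 8.06% as lower by edgeR in this comparison. Of genes with a mean of at least 500, 9.7% were called as higher and 11.1% as lower. An unadjusted edgeR p-value under 0.05 occurred in 5934 of all 25128 genes and in 2566 of the 6580 higher expressed ones. Whether 0 of 11 differs from these shares was not tested. For oxamate against vehicle edgeR called 0, with 1 at an unadjusted p-value under 0.05, and DESeq2 called 0. Against vehicle, where 7.48% of all genes and 19.5% of those with a mean of at least 500 were called as higher, both compounds raised Creb1, a transcription factor gene, by 0.38 (SE 0.09, edgeR adjusted p = 0.00657) and the chaperone gene Hsp90ab1 by 0.20 (SE 0.07, edgeR adjusted p = 0.0498) on the log2 scale. Their normalized counts went from a mean of 339 to 447 for Creb1 and from 4137 to 4830 for Hsp90ab1. Tsacc, the co-chaperone of TSSK6, averaged 2707 ± 239 normalized counts under vehicle, 2400 ± 170 under oxamate and 2399 ± 43.5 with octyl-L2HG added. For that addition its log2 fold change was -0.03 (SE 0.08, edgeR adjusted p = 0.886) and -0.20 against vehicle (SE 0.08, edgeR adjusted p = 0.0807). The phosphatase gene Ppp1cc had 19968 ± 596, 19185 ± 892 and 21615 ± 1207 in the same order of groups, and was called in no comparison. The list's median log2 fold change was 0.01 against oxamate, where the members' was -0.17.

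Among 6 genes for transcription regulators of spermatids, 3 fell with both compounds against oxamate, where 8.06% of all genes and 11.1% of those with a mean of at least 500 were called as lower. Taf7l, a testis paralog of a TFIID subunit, fell from a mean of 1265 normalized counts to 804, a log2 fold change of -0.68 (SE 0.08, edgeR adjusted p = 6.91e-06). Fhl5, a coactivator of CREM, fell by 0.31 (SE 0.07, edgeR adjusted p = 0.00413) and Sox30, an HMG-box factor, by 0.29 (SE 0.08, edgeR adjusted p = 0.0239) on the log2 scale. The Sox30 libraries of the 2 groups overlapped. DESeq2 called the same 3 and, as higher, Tbpl1, a TBP-related factor gene, whose log2 fold change was 0.16 in edgeR's fit (adjusted p = 0.0855) with groups that did not overlap. Against vehicle Taf7l and Fhl5 were lower, by -0.53 and -0.50, and Rfx2, a regulator of ciliary genes, was higher by 0.25 (edgeR adjusted p = 0.00959), with 10.6% of genes with a mean of at least 500 lower and 19.5% higher. Crem itself averaged 13344 ± 644 normalized counts under vehicle, 12543 ± 708 under oxamate and 12065 ± 96.1 under both compounds, and its log2 fold change was -0.08 against oxamate and -0.17 against vehicle (SE 0.06, edgeR adjusted p = 0.494 and 0.0735). Oxamate alone called 0 of the 6 by edgeR, 1 at an unadjusted p-value under 0.05, and 0 by DESeq2.

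The wider kinase lists moved in both directions. The list of AMPK-related kinases held 17 genes, of which Stk11 encodes LKB1, an upstream activator of these kinases and not one of the branch that TSSK proteins belong to. Of the 17, 3 rose with oxamate: Sik2 by 0.42, Mark2 by 0.40 and Brsk2 by 0.32 on the log2 scale (edgeR adjusted p = 0.00075, 0.015 and 0.00722). All genes called as higher made up 3.97% in this comparison, and 8.92% of those with a mean of at least 500. With octyl-L2HG against oxamate edgeR called 5 as lower and 0 as higher, with 6 in either direction at an unadjusted p-value under 0.05, where 8.06% of all genes were called as lower and 3.18% as higher, and DESeq2 called the same 5 and, as higher, 1, Prkaa1. The 5 were Snrk at -0.61, Mark3 at -0.49, Mark2 at -0.48, Brsk2 at -0.39 and the lowly expressed Nuak2, which went from a mean of 40.7 to 16.0 normalized counts. Nuak2 falls outside the rule for named genes, which asks for a mean of at least 100, and was named after its values were seen. Against vehicle Sik2 was higher by 0.53, and Snrk (-0.51), Mark3 (-0.34) and Nuak2 were lower, with 7.48% of all genes called as higher and 10.6% as lower. Mark2 and Brsk2 were thus called as higher with oxamate and as lower when octyl-L2HG was added. No member was called in both steps, though Tssk3 moved in the same directions, by 0.14 and -0.30. The share of all genes called in both steps was not counted, and a difference between the lists was not tested.

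Of 16 other kinases of spermatids, both compounds raised 3 and lowered 1 against oxamate by edgeR, where 9.7% of genes with a mean of at least 500 were called as higher and 11.1% as lower. Stk33, a kinase of the sperm tail, rose by 0.35, Cilk1, a ciliary kinase, by 0.26 and Fer by 0.24 on the log2 scale (edgeR adjusted p = 0.000698, 0.0435 and 0.0163), and Camk4, a calcium/calmodulin-dependent kinase, fell by 0.36 (edgeR adjusted p = 0.00295). Oxamate alone raised Gsk3a by 0.50, Tesk2 by 0.46 and Mak by 0.34 (edgeR adjusted p = 0.00149, 0.000233 and 0.00328), 3 of 16, where 3.97% of all genes and 8.92% of those with a mean of at least 500 were called as higher. Against vehicle 5 were higher and 1 lower with both compounds, where 19.5% of genes with a mean of at least 500 were higher and 10.6% lower. Those higher included Gsk3a by 0.46, Tesk2 by 0.38, Mak by 0.38 and Cilk1 by 0.36. Against vehicle, this list had a median log2 fold change of 0.15 and the AMPK-related list one of -0.07, beside -0.20 in the members.

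**Figure D5:**
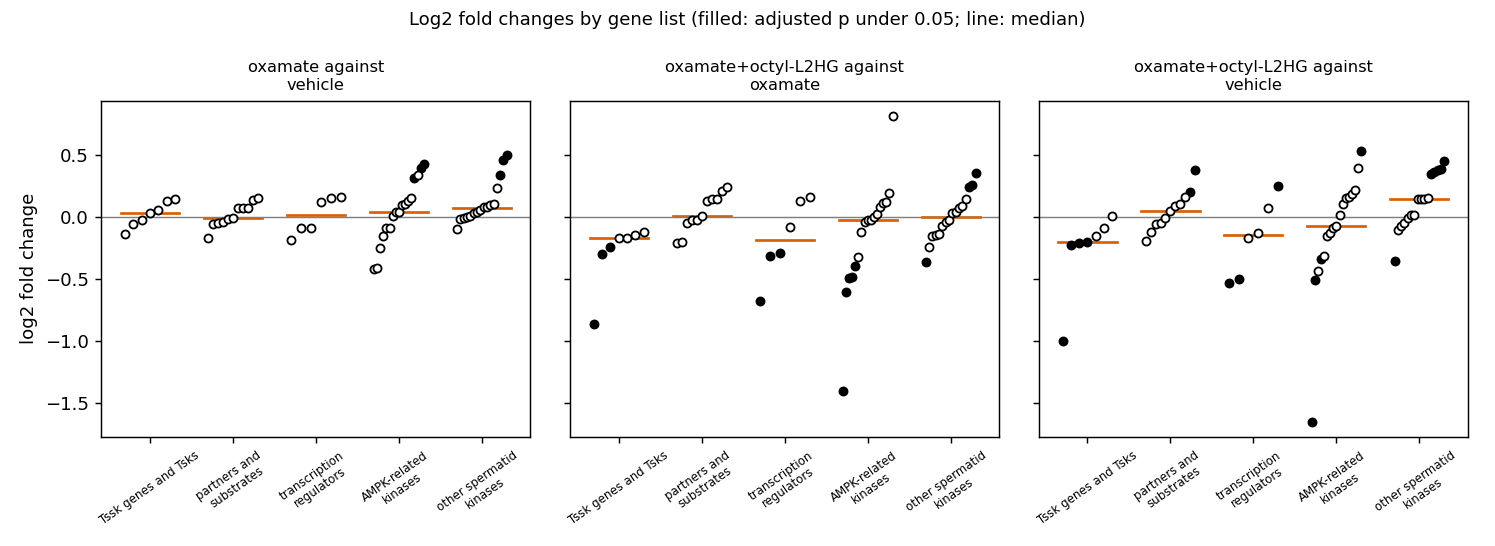
Log2 fold changes of single genes in 5 gene lists for the 3 comparisons. Filled points had an edgeR adjusted p-value under 0.05 and lines are list medians, at -0.17 for the Tssk genes and Tsks and 0.01 for partners and substrates with both compounds against oxamate.

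Markers of late spermatids moved in the same libraries. Prm1, Prm2, Tnp1 and Tnp2, the genes for protamines and transition proteins that replace histones, fell with oxamate and again when octyl-L2HG was added, 4 of 8 spermatid markers in each step by edgeR's test, where 1.22% and 8.06% of all genes were called as lower. In the second step the acrosomal genes Zpbp, Acrv1 and Acr lay higher in every library with both compounds than under oxamate, by 0.20, 0.19 and 0.14 on the log2 scale. Such a separation upward held for 13.4% of all genes and 30.3% of those with a mean of at least 500. Spaca1, of the same list, overlapped between the groups, at 0.01. None of Zpbp, Acrv1 and Acr passed edgeR's test (adjusted p = 0.0599, 0.0598 and 0.200), and DESeq2 called Acrv1 and Zpbp as higher. Normalized counts of Prm1 were 5203, 4960 and 4583 under vehicle, 3551, 3647 and 3575 under oxamate and 2976, 2868 and 2913 under both compounds, with no overlap between groups. Its log2 fold change was -0.45 for oxamate (SE 0.07, edgeR adjusted p = 0.000224) and -0.32 for both compounds against oxamate (SE 0.07, edgeR adjusted p = 0.0027). Against vehicle with both compounds 2 of the 8 were called as higher by edgeR, the acrosomal genes Acr and Acrv1, by 0.21 and 0.25. The 4 called as lower were Prm1 (-0.77), Tnp2 (-0.75), Prm2 (-0.68) and Tnp1 (-0.56). Of genes with a mean of at least 500, 19.5% were called as higher and 10.6% as lower. The summed spermatid markers were 69771 to 70423 with vehicle, 62547 to 66078 with oxamate and 65691 to 66393 with both compounds. Of the 6 spermatocyte markers, Sycp2 rose against oxamate by 0.37 (SE 0.09, edgeR adjusted p = 0.00774), from a mean of 3770 normalized counts to 4958, and the others were not called. The list's sum was 8587 to 10560 with vehicle, 8272 to 9265 with oxamate and 9944 to 10381 with both compounds, so vehicle overlapped both. Among spermatogonia, Sertoli, Leydig, myoid and macrophage markers, 0 of 18 tested were called in the comparisons between 2 groups by edgeR or by DESeq2, with at most 2 of a list at an unadjusted p-value under 0.05. The spermatogonial gene Gfra1 was called by edgeR in the test of any difference. The spermatogonia sum was 189 to 208 with vehicle, below the 234 to 248 with oxamate and the 226 to 237 with both compounds, which overlapped each other. The part of these markers in the fall of Tssk6 and the other members was not tested.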

How the data were processed

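RNA of round spermatids was measured in 9 libraries, 3 per group. The authors trimmed reads with cutadapt 2.10, aligned them with TopHat2 2.1.1 to GRCm39 and deposited counts per gene from HTSeq 2.01. The labels also list a nematode build, which was not used. The deposited normalized signal is that count divided by the DESeq2 (1.36.0) size factor of the library. No columns were unused. Groups came from the labels.

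Genes with at least 10 counts over the 9 libraries (25128; 6250 listed genes had blank counts) entered edgeR 4.0.16 under R 4.3.3 (TMM, robust quasi-likelihood fit of all libraries, Benjamini-Hochberg adjustment over all genes, threshold 0.05). Normalized counts and ratios are on the size factor scale and log2 fold changes on the TMM scale. Approximate 95% intervals were taken from the standard errors and a normal distribution. Alternatives were DESeq2 1.42.0, other scalings, filters and thresholds, fits of the compared groups only, and each library left out. The test was checked on simulated counts with known changes.

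Transcripts were from GENCODE vM21, a different build from that of the files, matched by gene identifier and used for lengths, exons and sequences only. Named genes were all members; Crem, Tsacc and Ppp1cc; up to 4 called genes of each list and comparison by size with a mean of at least 100 normalized counts; and the 3 genes most like each called member. Acr and Acrv1, Prm1, Prm2, Tnp1, Tnp2 and Sycp2 are marker genes. The members and lists were chosen with earlier results of these data known.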

Additional observations from a re-analysis of the deposited data

How the results depend on the processing

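No paired analysis was made. The groups share no replicate numbers, and the labels do not say whether libraries of different groups belong together, so pairing is unknown. Of the single-gene log2 fold changes under all alternatives, 303 kept direction and side of the threshold, 21 lost the call, 5 gained one and 7 changed sign, and the latter were all small. With total counts as the scaling, Tssk5 against vehicle was -0.051 with both compounds, 6 members were called against oxamate, all but Tssk5, and the median of all genes against vehicle was -0.11. With each library left out, the values for oxamate against vehicle ran from -0.066 to 0.013 for Tssk1, -0.24 to 0.0034 for Tssk6 and -0.0083 to 0.051 for Tsks, and those for both compounds against vehicle from -0.049 to 0.082 for Tssk5. The signs turned without vehicle library 1 (Tssk1, Tssk6), vehicle library 2 (Tsks, Tssk5), oxamate library 6 (Tssk1) and library 9 (Tssk5). With no filter on low counts, 2 members were called against oxamate, 1 against vehicle and 2 in the test of any difference. At an adjusted p-value under 0.01, 2 members were called against oxamate, 1 against vehicle and 2 for any difference, and 602, 1261 and 2607 of all genes were called in the comparisons of oxamate with vehicle, both compounds with oxamate and both compounds with vehicle. With only the groups compared, 723 genes were called for oxamate. Leaving out each library gave 659 to 2288, 1396 to 4415 and 2970 to 6194 genes in these comparisons, and 0, 2 to 3 and 1 to 5 members, with 2 to 5 in the test of any difference. The lowest member counts came without library 8, where 1 was called against vehicle and 2 for any difference, and 2 for any difference also without library 9. Without vehicle library 1 or 3, or library 9, 2 members were called against vehicle, and 3 were called for any difference without library 1, 3 or 7. The lowest gene counts came without vehicle library 2 for oxamate and without library 7 for both other comparisons. The highest gene counts came without oxamate library 4. The Tssk1 call against vehicle was also lost with DESeq2 size factors in edgeR (adjusted p = 0.0536). The causes of these changes were not tested. With 3 libraries per group, the standard errors of the members' log2 fold changes were 0.06 to 0.11, which limits the smaller differences.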
